A study of Mus musculus with 21 samples.

Results

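Tight junction genes in endothelium and in epithelium-bearing tissue were followed in 9 members, chosen by their symbols: Cldn5, Ocln, Lsr, F11r, Tjp1, Cgn, Cldn1, Cldn3 and Cldn12. Each was found in 1 of the 23827 gene rows, and all 9 had reads in every sample, with at least 47 reads on a member in any sample. The question asked of them was how the brain barrier endothelium, the kidney endothelium and the kidney with its epithelium differ in the mRNAs that build a junction.

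Libraries came from mouse embryos at embryonic day 14.5, in 7 groups of 3 biological replicates (21 samples), and all embryos carried the same Gt(ROSA)26Sor-mCherry-Rpl10a+/- allele, which was derived from 1 targeted embryonic stem cell clone. After Cre recombination this allele gives an mCherry-tagged ribosomal protein L10a, so that ribosomes of the recombined cells and the RNA on them can be pulled down, a method called translating ribosome affinity purification (TRAP). In Sox2Cre+/-;Gt(ROSA)26Sor-mCherry-Rpl10a+/- embryos, Cre acts in all derivatives of the epiblast. Their forebrains and kidneys gave the brain and kidney translatomes (ribosome-bound RNA of the whole organ) and the brain and kidney transcriptomes (total RNA of the same tissue samples). Cdh5CreERT2+/-;Gt(ROSA)26Sor-mCherry-Rpl10a+/- embryos, in which the VE-cadherin promoter drives a Cre that needs tamoxifen, given by gavage, gave the brain EC and kidney EC translatomes (EC, endothelial cells). Emx1Cre+/-;Gt(ROSA)26Sor-mCherry-Rpl10a+/- embryos gave the translatome of the Emx1-lineage, the neural cells of the dorsal telencephalon. A sample held the tissue of 1 or 2 embryos. No group was made of epithelium alone: the kidney translatome and transcriptome hold it together with the other kidney cells.

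Tight junctions seal the cleft between neighbouring cells. Claudins form the sealing strands, and each cell type uses its own set of them. Occludin and the junctional adhesion molecules lie in or beside the strands, angulins such as Lsr hold the corners where several cells meet, and zonula occludens and cingulin proteins tie the strands to actin. In the central nervous system, endothelial tight junctions are part of the blood-brain barrier and Cldn5 is their main claudin. In the kidney, junctions of the tubule and collecting duct epithelium set which ions and solutes pass between cells, whereas many renal capillaries are fenestrated.

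Positions were taken from GENCODE on GRCm38. Cldn5, the main endothelial claudin, lies on chromosome 16 (18776847 to 18778262, plus strand) and has a single exon. Ocln, for occludin, spans 100496507 to 100552718 on the minus strand of chromosome 13 with 10 exon blocks. Lsr, for the angulin that recruits tricellulin to tricellular corners, spans 30957770 to 30973464 on the minus strand of chromosome 7, also with 10 exon blocks. F11r, for the junctional adhesion molecule JAM-A, lies on chromosome 1 (171437535 to 171464603, plus strand). Tjp1, for the scaffold ZO-1, lies on the minus strand of chromosome 7 (65296165 to 65527781), and Cgn, for the linker cingulin, on that of chromosome 3 (94760069 to 94786492). Of the remaining claudins, Cldn1 is on chromosome 16 (26356642 to 26371841, minus strand), Cldn3 on chromosome 5 (134986214 to 134987472, plus strand, 1 exon) and Cldn12 on chromosome 5 (5489537 to 5514958, minus strand). Annotated exons of Lsr share 946 bases with the antisense transcript Gm4673 and 25 bases with Gm17077, and those of Cldn3 share 40 bases with Wbscr25. The library kit does not keep strand, so reads on these shared bases cannot be assigned to one gene or the other.

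Promoters are shown for Cldn5, Ocln and Lsr because these 3 members were higher in brain EC than in kidney EC. The 250 bases before the RefSeq start (GRCm38.p6) were read 5′ to 3′ on the gene's strand, at chr16:18776597-18776846 (plus) for Cldn5, chr13:100552719-100552968 (minus) for Ocln and chr7:30973470-30973719 (minus) for Lsr. Capitals mark the letters GGAAGT (a core that ETS factors can bind), CTTTGA (TCF/LEF), CAGGTG (an E-box) and GGGCGG (a GC box), searched on both strands.
Cldn5: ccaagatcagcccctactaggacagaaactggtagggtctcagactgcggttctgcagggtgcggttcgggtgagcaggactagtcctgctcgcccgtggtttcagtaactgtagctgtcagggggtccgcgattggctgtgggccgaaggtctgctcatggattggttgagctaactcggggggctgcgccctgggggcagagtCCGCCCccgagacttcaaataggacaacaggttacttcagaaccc
Ocln: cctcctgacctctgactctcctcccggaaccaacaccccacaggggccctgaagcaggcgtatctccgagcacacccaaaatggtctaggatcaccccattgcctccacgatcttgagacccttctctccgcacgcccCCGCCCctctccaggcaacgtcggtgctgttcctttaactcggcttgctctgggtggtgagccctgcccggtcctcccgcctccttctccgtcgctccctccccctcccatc
Lsr: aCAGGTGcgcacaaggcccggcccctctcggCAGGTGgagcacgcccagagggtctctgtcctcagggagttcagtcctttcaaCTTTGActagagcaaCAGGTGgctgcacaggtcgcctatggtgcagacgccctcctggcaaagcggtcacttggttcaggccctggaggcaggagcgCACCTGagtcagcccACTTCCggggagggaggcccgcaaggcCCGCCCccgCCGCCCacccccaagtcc
The Lsr window held all 4 motifs, with 4 E-boxes, 2 GC boxes, 1 ETS core and 1 TCF/LEF match. In the Cldn5 and Ocln windows the search found 1 GC box each and none of the other letters. Of 32817 mouse promoter windows of the same length, 19.7% held the ETS core, 13.8% the TCF/LEF letters, 17.2% the E-box and 32.7% the GC box. Among the other members, F11r had 1 E-box and 1 GC box, Cgn 6 GC boxes, Tjp1 and Cldn1 2 GC boxes each, Cldn3 1 GC box and Cldn12 no match. A match is a description of these letters, not evidence of binding.

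Counted reads ranged from 21760652 to 79231692 per sample, and replicates within a group correlated at r between 0.9965 and 0.9992 across genes. Brain EC, kidney EC and the Emx1-lineage were each sequenced in a lane of their own, so lane and group cannot be told apart in any comparison with them. The labelled cell types were checked with marker lists, each summed as RPKM (reads scaled by transcript length and library size). The 10 endothelial markers summed to 2795 to 2891 in brain EC and 2410.4 to 2823 in kidney EC, against 146 to 167 in the brain translatome and 434 to 467 in the kidney translatome. In the Emx1-lineage they summed to 12.9 to 15.3, and 6 of the 10 had a mean RPKM under 1. The 5 brain barrier markers summed to 1800.4 to 1808 in brain EC and 40.9 to 48.3 in kidney EC, and the 3 fenestrated endothelium markers to 129 to 149 and 428 to 546. Of the fenestrated markers, Plvap (mean 84.4 in brain EC and 419 in kidney EC) and Ehd3 (7.39 and 39.0) were higher in kidney EC. Nrp2 was not (44.2 and 39.7).

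Markers of other cell types were also read in the endothelial libraries. The 6 simple epithelium markers summed to 163 to 216 in the kidney translatome and still to 62.5 to 71.4 in kidney EC, where none had a mean RPKM under 1. Krt19 had similar means in kidney EC and the kidney translatome (7.86 and 7.91). The others had lower means in kidney EC, Epcam for example 7.42 against 56.8. In brain EC the 6 markers summed to 6.87 to 16.3, of which Cdh1 (E-cadherin) gave 4.60 to 13.1 and 4 of the 6 had a mean RPKM under 1. Ureteric bud markers reached 33.0 to 34.3 in kidney EC, against 80.7 to 96.5 in the kidney translatome, and most of the kidney EC sum was Hoxb7 (mean 21.1, against 33.5), while Wnt11, for example, had 2.51 against 16.0. Podocyte markers, among them Podxl, which endothelium also expresses, summed to 217 to 259.7 in kidney EC, against 72.0 to 99.7. Neural markers summed to 327 to 428 in brain EC, against 1812 to 1843 in the brain translatome, and choroid plexus markers to 131 to 180.5, against 519 to 636. Most of the choroid plexus sum was Ttr (mean 143 in brain EC and 547 in the brain translatome), and Otx2 also had a lower mean (4.99 against 12.2). Folr1 (3.51 against 5.28) and Aqp1 (3.44 against 3.79) differed less, and Kl was low in both (0.199 and 0.145). Pericyte markers were at 20.4 to 24.7 in brain EC, against 39.1 to 51.7 in the brain translatome, and at 97.1 to 109 in kidney EC, against 101 to 118 in the kidney translatome. In brain EC the mean of Cspg4 was higher (10.2, against 2.10 in the brain translatome), and those of the other pericyte markers were lower. Most of the kidney EC sum was Cspg4 (mean 73.9 in kidney EC and 23.8 in the kidney translatome), whereas Pdgfrb (8.76 against 30.0), Rgs5 (6.11 against 38.6) and Kcnj8 (3.92 against 11.4) had lower means in kidney EC and Abcc9 a higher one (11.3 against 6.72). Macrophage and microglia markers were at 11.6 to 13.5 and 3.61 to 3.98, red blood cell markers at 2.43 to 3.05 and 2.15 to 3.11, and epidermis markers at most 0.0284 and at 1.11 to 3.77, respectively. Both epidermis markers had higher means in kidney EC than in the kidney translatome, Krt5 1.35 against 0.0699 and Krt14 0.713 against 0.0167. The kidney EC samples varied, with Krt5 between 0.688 and 2.41. In bulk samples fewer cells of a type and less RNA per cell cannot be told apart, and this holds for every group difference below.

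Brain EC and kidney EC shared high levels of Cldn5, F11r and Tjp1, but Ocln and Lsr separated them. Cldn5 had the highest level of any member in both, at 1349.7, 1291 and 1147 RPKM in the 3 brain EC samples and 328, 354 and 270.3 in the 3 kidney EC samples. The 2 groups did not overlap with each other or with any other group. Next came the brain translatome at 68.3 ± 7.13 (SD, n = 3) and the kidney translatome at 65.8 ± 3.71, which overlapped, then the kidney transcriptome at 51.1 ± 2.05 and the brain transcriptome at 36.7 ± 7.15. The Emx1-lineage was lowest, at 8.66 ± 0.842.

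Ocln was read at 25.0, 23.9 and 27.1 RPKM in brain EC and at 1.21, 1.23 and 1.50 in kidney EC. Whole kidney had more than kidney EC, with 6.60, 8.14 and 7.24 RPKM in the translatome and a mean of 8.23 ± 0.485 (SD, n = 3) in the transcriptome. Every kidney EC sample was below every whole-kidney sample and below the brain translatome (1.83 ± 0.127), and overlapped the brain transcriptome (1.61 ± 0.135). The Emx1-lineage stood at 0.452 ± 0.0464.

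Lsr had a similar pattern at higher levels in brain EC. Brain EC samples had 156, 149 and 143 RPKM, and kidney EC samples 3.25, 3.13 and 3.50, the lowest of the 7 groups. Whole kidney lay between them, at 24.6 ± 1.91 (SD, n = 3) for ribosome-bound and 24.6 ± 0.784 for total RNA, which overlapped, and so did the brain translatome at 10.8 ± 0.790. Over the 7 group means, Ocln and Lsr had a Pearson r of 0.96 on log2(RPKM + 1), the highest of the 36 pairs of members, followed by Cldn3 with Cldn12 at 0.93. These points share their libraries and are a description only.

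F11r was high in both endothelia and in kidney as a whole. It stood at 87.7, 94.0 and 90.6 RPKM in brain EC, at 70.6, 80.6 and 73.4 in kidney EC, and at 47.4 ± 1.38 and 43.5 ± 1.10 (SD, n = 3) in the kidney translatome and transcriptome. Brain tissue had far less, with 5.83 ± 0.262 in the translatome, 3.50 ± 0.331 in the transcriptome and 0.524 ± 0.0652 in the Emx1-lineage. No neighbouring groups in this order overlapped.

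The scaffold Tjp1 was the member most alike in the 2 endothelia. Its levels were 127, 133 and 106 RPKM in brain EC and 112, 115 and 125 in kidney EC, and these ranges overlapped. All other groups were lower, from 47.7 ± 0.847 (SD, n = 3) in the kidney transcriptome to 21.3 ± 1.23 in the brain transcriptome, and unlike F11r it was present in the Emx1-lineage at 25.8 ± 0.975. Cgn, which binds ZO-1, was low throughout and highest in kidney EC, at 6.66, 8.38 and 9.34 RPKM, against 3.84 ± 0.351 in the kidney translatome, 1.49 ± 0.222 in brain EC and 0.650 ± 0.116 in the brain translatome.

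Cldn1, Cldn3 and Cldn12 had their highest means in whole kidney. Cldn1, a barrier claudin of many epithelia, stood at 10.3 ± 0.872 RPKM (SD, n = 3) in the kidney translatome, at 3.78 ± 0.446 in kidney EC and at 1.12 to 1.37 on average in the 4 brain groups. Cldn3, another sealing claudin, stood at 17.0 ± 1.78 in the kidney translatome, 2.38 ± 0.372 in kidney EC and 4.36 ± 0.355 in the Emx1-lineage. Brain EC held the lowest Cldn3 of all, with 1.02, 0.754 and 0.957 RPKM. Cldn12 was the flattest member, between 6.87 ± 0.125 in brain EC and 22.4 ± 3.23 in the kidney translatome. Its means in the brain transcriptome (12.6), brain translatome (11.0) and Emx1-lineage (10.3) were above that in kidney EC (8.83).

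**Figure D1:**
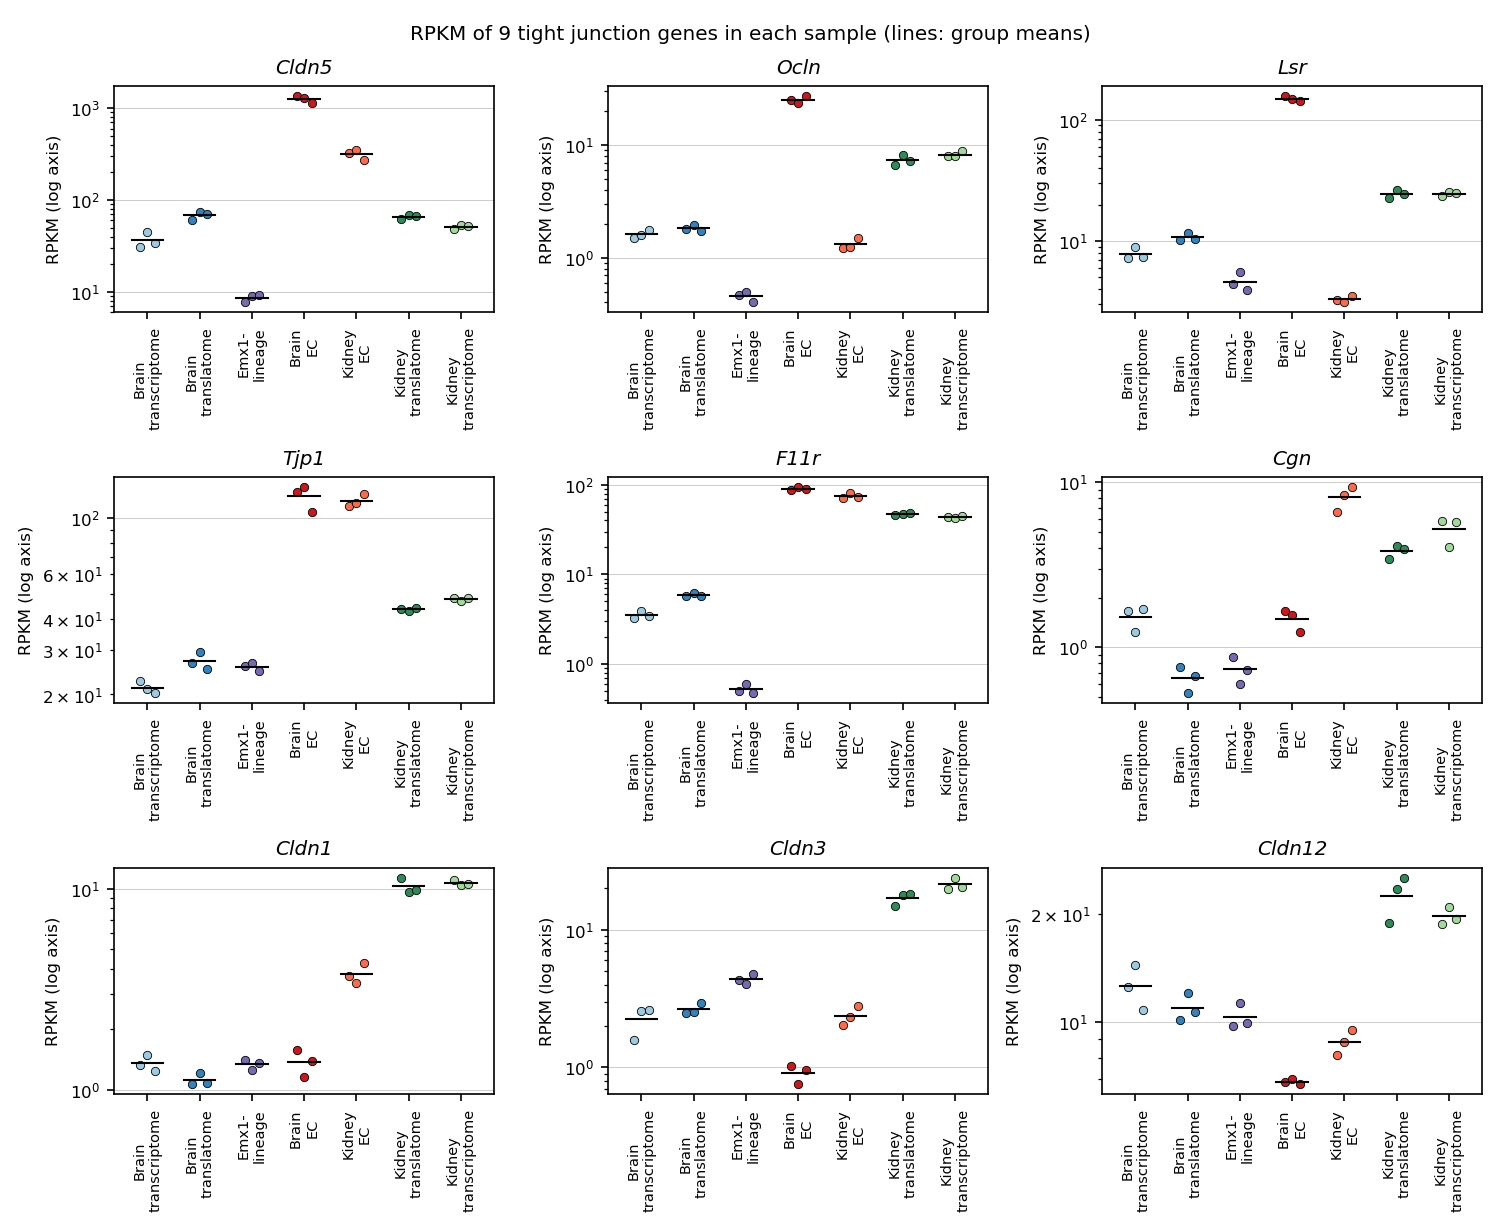
RPKM of each of the 9 members (log axis, its range differs between panels) in the 7 groups; each point is 1 sample and the line is the mean of 3. Ocln and Lsr are high in brain EC and low in kidney EC, F11r and Tjp1 are high in both, and Cldn1, Cldn3 and Cldn12 are highest in whole kidney.

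Cldn5 made up most of the claudin mRNA on endothelial ribosomes. Summed over the 25 claudin rows, claudin RPKM was 1355 in brain EC and 433 in kidney EC on average, of which Cldn5 gave 93.2 ± 0.921% and 73.0 ± 2.86% (SD, n = 3). Its share was 46.0 ± 2.46% in the brain translatome, 16.3 ± 0.365% in the kidney translatome and 11.4 ± 0.882% in the Emx1-lineage. In the kidney translatome, whose summed claudin RPKM was 403, the sum was spread over Cldn25 (15.6%), Cldn6 (14.6%), Cldn7 (11.1%), Cldn4 (8.95%), Cldn8 (8.84%) and others. Cldn1, Cldn3 and Cldn12 together with Cldn5 were the claudins followed as members, and the first 3 each gave at most 0.51% of the brain EC sum and 2.06% of the kidney EC sum.

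**Figure D2:**
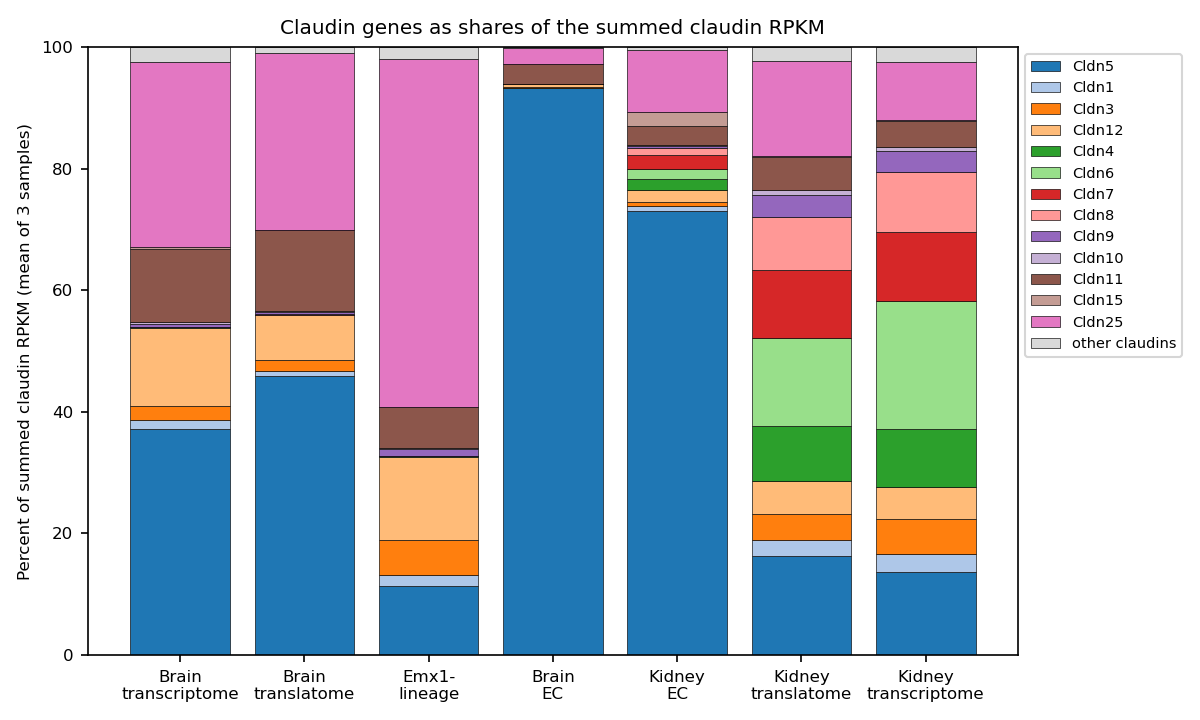
Share of each claudin in the summed RPKM of 25 claudin rows (percent, mean of 3 samples), stacked for the 7 groups; claudins with small shares are pooled as other claudins. Cldn5 fills 93.2% of the brain EC column and 73.0% of the kidney EC column, but 16.3% of the kidney translatome column.

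Which of these mRNAs were enriched on endothelial ribosomes of the brain was tested against the brain translatome. Of the 9 members, 6 were higher in brain EC, 1 was lower and 2 did not pass the threshold (edgeR's quasi-likelihood test, Benjamini-Hochberg adjusted p under 0.001). Of all 19103 transcripts tested, 46.2% passed, 24.8% higher and 21.4% lower. The median log2 fold change of the members was 2.46, against -0.01 over all transcripts.

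Cldn5 was 22.6-fold higher, with a log2 fold change of 4.50 ± 0.11 (SE; edgeR adjusted p = 1.4e-12, n = 3 and 3). F11r (log2 fold change 4.25 ± 0.07), Lsr (4.09 ± 0.08) and Ocln (4.09 ± 0.09) followed with folds of 19.0, 17.0 and 17.0. Enrichment was smaller for the scaffolds, 5.50-fold for Tjp1 (2.46 ± 0.10, edgeR adjusted p = 1.3e-10) and 2.77-fold for Cgn (1.47 ± 0.16, edgeR adjusted p = 2.6e-06). Cldn3 was lower by 2.36-fold (-1.24 ± 0.18, edgeR adjusted p = 4.0e-05). The 95% intervals of the members that did not pass were 0.27 to 0.91 (log2) for Cldn1 and -0.56 to -0.21 for Cldn12, with edgeR adjusted p = 0.0032 and 0.0011.

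With the brain transcriptome as the reference, 2 of these calls were lost: the log2 fold change of Cgn was 0.29 (edgeR adjusted p = 0.10) and that of Cldn3 -0.97 (edgeR adjusted p = 0.0014). Without brain EC replicate 2, Cldn1 (0.69, edgeR adjusted p = 0.00057) and Cldn12 (-0.40, edgeR adjusted p = 0.00096) passed the threshold. For scale, the endothelial markers Cdh5 and Pecam1 rose by 27.2-fold and 21.0-fold, and Ttr, a choroid plexus marker, was lower (log2 fold change -1.64). Of the epithelial markers, Epcam and Krt8 did not pass the threshold (-1.11 and 0.78), while Cdh1 was 9.89-fold higher in brain EC. The part of these other cells in the members' values was not tested.

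Beyond the members, 46 of 49 other tight junction genes were tested, and 17 were higher in brain EC, 8 lower and 21 did not pass. Their median log2 fold change was 0.29. Among those with a mean of at least 5 RPKM in a group compared, from which such genes are named here and for the later comparisons, the largest were Esam (4.59 ± 0.09), an endothelial adhesion molecule that is also on the endothelial marker list, Cgnl1 (4.45 ± 0.25), the paralogue of cingulin, and Marveld2 (3.68 ± 0.14), tricellulin. Mpdz (3.49 ± 0.11) and Mpp5 (2.28 ± 0.07) encode polarity scaffolds with PDZ domains. Marveld2 is the protein that Lsr recruits to cell corners, and both stood among the enriched genes.

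The same test in kidney split the members. Against the kidney translatome, 4 members were higher in kidney EC and 5 were lower, where 31.7% of 18940 transcripts passed, 16.7% higher and 15% lower. The members' median log2 fold change was -0.97, against -0.04 over all transcripts. Higher were Cldn5 (6.16-fold, log2 2.62 ± 0.10 SE, edgeR adjusted p = 3.0e-09), Tjp1 (3.45-fold, 1.79 ± 0.07), Cgn (2.71-fold, 1.44 ± 0.13) and F11r (2.02-fold, 1.01 ± 0.06). Lower were Lsr (5.83-fold, -2.54 ± 0.09, edgeR adjusted p = 3.4e-09), Cldn3 (5.59-fold, -2.48 ± 0.14), Ocln (4.34-fold, -2.12 ± 0.13), Cldn1 (2.12-fold, -1.08 ± 0.11) and Cldn12 (1.96-fold, -0.97 ± 0.11).

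All 9 calls held when each replicate was left out in turn. Over those 6 fits the log2 fold change of Ocln lay between -2.23 and -2.04 and that of Lsr between -2.60 and -2.49. The epithelial markers Epcam and Cdh1 were also lower in kidney EC, with log2 fold changes of -2.58 and -1.68, and Krt8 did not pass (-0.37). How much of the 1.32 RPKM of Ocln or the 3.29 RPKM of Lsr in kidney EC came with that epithelial RNA was not tested. Cdh5 and Pecam1 were 8.96-fold and 7.62-fold higher.

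Of 47 other tight junction genes tested, 11 were higher in kidney EC, 20 lower and 16 did not pass, with a median log2 fold change of -0.78. Cldn15, a cation-channel claudin, had the largest difference, from 0.766 ± 0.235 RPKM (SD, n = 3) in the kidney translatome to 9.60 ± 1.30 in kidney EC (log2 fold change 4.00 ± 0.19 SE), and Esam followed (3.18 ± 0.08). Cldn9 (-2.93 ± 0.14), Crb3 (-2.89 ± 0.14), an apical polarity gene of epithelia, and Cldn6 (-2.83 ± 0.10) were the most depleted.

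Scaling by total counts instead of TMM shifted the median log2 fold change of all transcripts by -0.30 in the brain and -0.37 in the kidney comparison. The share of calls that were higher went from 53.7% to 36.1% in brain EC and from 52.7% to 21.7% in kidney EC. No member changed direction under that scaling, and Cldn12 passed the threshold as lower in brain EC (-0.68, edgeR adjusted p = 6.3e-06).

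**Figure D3:**
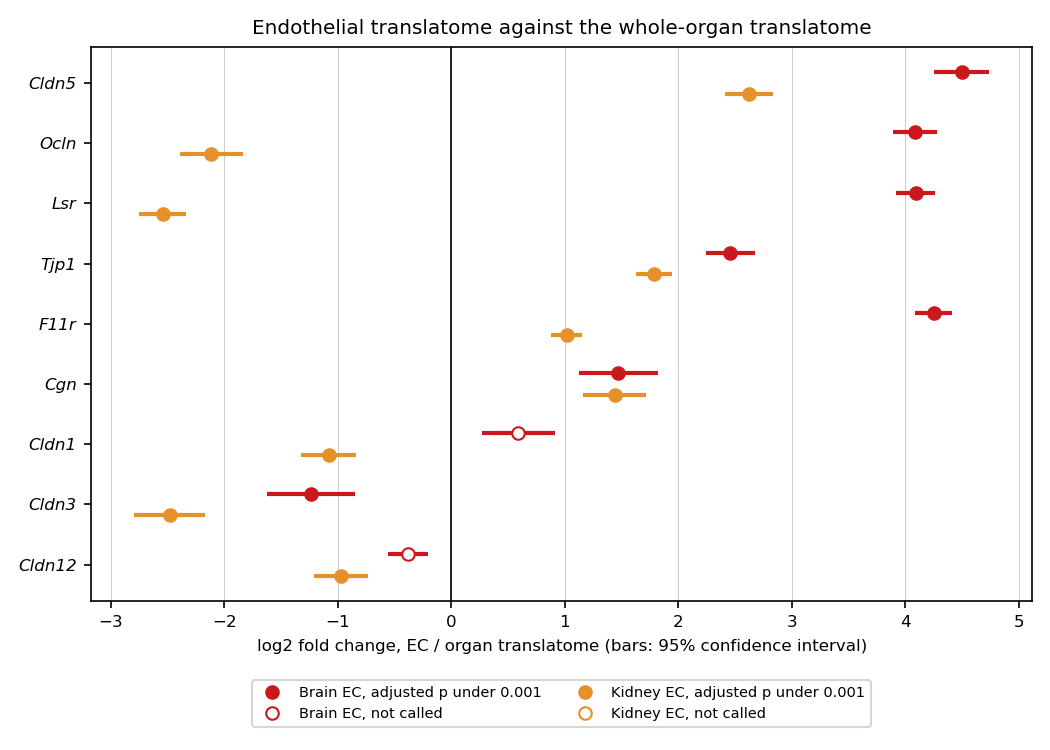
Log2 fold change of each member in brain EC (red) and kidney EC (orange) against the translatome of the same organ, with 95% confidence intervals; filled points passed an adjusted p under 0.001. Cldn5, F11r, Tjp1 and Cgn lie right of 0 in both organs, whereas Ocln (4.09 and -2.12) and Lsr (4.09 and -2.54) lie on opposite sides.

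Whether the endothelial enrichment itself differed between the organs was tested as an interaction over the 12 samples, which are the same samples as in the 2 comparisons above. The log2 fold change over the organ translatome was higher in brain for 7 of the 9 members, where 25.1% of 19764 transcripts passed, 16.5% with a higher and 8.6% with a lower value in brain. For Cldn3 this was a weaker depletion, and Cldn1 was depleted in kidney EC and not called in brain EC, and both were lower in brain EC than in kidney EC when these were compared directly. The difference in log2 fold change was 6.66 ± 0.11 (SE) for Lsr, 6.23 ± 0.15 for Ocln, 3.26 ± 0.09 for F11r and 1.90 ± 0.14 for Cldn5. Cldn1 (1.70 ± 0.18), Cldn3 (1.27 ± 0.22) and Tjp1 (0.70 ± 0.12) also passed, each with an edgeR adjusted p of at most 0.00016. In the direct comparison of brain EC with kidney EC, F11r (log2 fold change 0.32) and Tjp1 (0.10) did not pass. Both were higher in the kidney translatome than in the brain translatome, by 2.82 and 0.48. For Lsr and Ocln the sign of the enrichment was opposite in the organs. Cldn12 did not pass (0.62, 95% interval 0.32 to 0.92, edgeR adjusted p = 0.0018), nor did Cgn (0.06, -0.38 to 0.50, edgeR adjusted p = 0.92).

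Cldn12 passed without kidney translatome replicate 1 (0.73, edgeR adjusted p = 0.00015). The endothelial markers moved the same way: all 10 had a larger enrichment in brain, with a median difference of 1.55, and the endothelial marker sum of the reference was higher in kidney (434 to 467 RPKM) than in brain (146 to 167). That difference in reference is part of each member's value, and its part was not tested. Among the other tight junction genes 20 of 47 had a higher value in brain, 2 a lower one and 25 did not pass. Igsf5 (6.05 ± 0.28), also called JAM4, and Marveld2 (5.24 ± 0.20) led, and Cldn15 (-4.08 ± 0.58) was the main exception. Cldn7 (4.17 ± 0.43) and Cldn4 (3.62 ± 0.76) also passed, although both had a mean RPKM of at most 0.282 in the brain groups compared.

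Brain EC and kidney EC were then compared directly, a contrast of barrier endothelium with an endothelium that had more of the fenestrated markers Plvap and Ehd3, though not of Nrp2. Of the members, 3 were higher in brain EC, 3 lower and 3 did not pass, where 37% of 19238 transcripts passed, 20.1% higher and 16.9% lower. The members' median log2 fold change was 0.10, against 0.01 over all transcripts.

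Lsr was 46.7-fold higher in brain EC (log2 fold change 5.54 ± 0.09 SE, edgeR adjusted p = 2.0e-11), Ocln 19.8-fold (4.31 ± 0.11, edgeR adjusted p = 1.8e-10) and Cldn5 4.11-fold (2.04 ± 0.11, edgeR adjusted p = 4.5e-08). Cgn was 5.31-fold lower (-2.41 ± 0.15, edgeR adjusted p = 1.5e-07), Cldn1 2.67-fold lower (-1.42 ± 0.15) and Cldn3 2.53-fold lower (-1.34 ± 0.20, edgeR adjusted p = 0.00016). In all 6, no brain EC sample overlapped with a kidney EC sample, which adds nothing to calls made from these same samples. How many of all transcripts also had no overlap was not counted. Tjp1 did not differ by more than the spread (0.10, 95% interval -0.12 to 0.32, edgeR adjusted p = 0.39), which leaves room for a difference of up to 0.32 on the log2 scale.

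F11r (0.32, interval 0.17 to 0.48) and Cldn12 (-0.32, interval -0.50 to -0.14) did not pass the threshold, with edgeR adjusted p = 0.0020 and 0.0060, although their samples did not overlap. DESeq2 called F11r at nearly the same size (0.32, adjusted p = 6.5e-05). The endothelial markers Cdh5 and Pecam1 did not pass the threshold between the organs (0.09 and -0.11). Epcam (-4.54) and Krt8 (-4.23) were lower in brain EC, in the direction of Cldn1, Cldn3 and Cgn, while Cdh1 did not pass (0.14). Their part in those 3 members was not tested. Against the kidney translatome, kidney EC was lower in Cldn1 (log2 fold change -1.08) and Cldn3 (-2.48) but higher in Cgn (1.44). Ttr was higher in brain EC (log2 fold change 11.32).

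**Figure D4:**
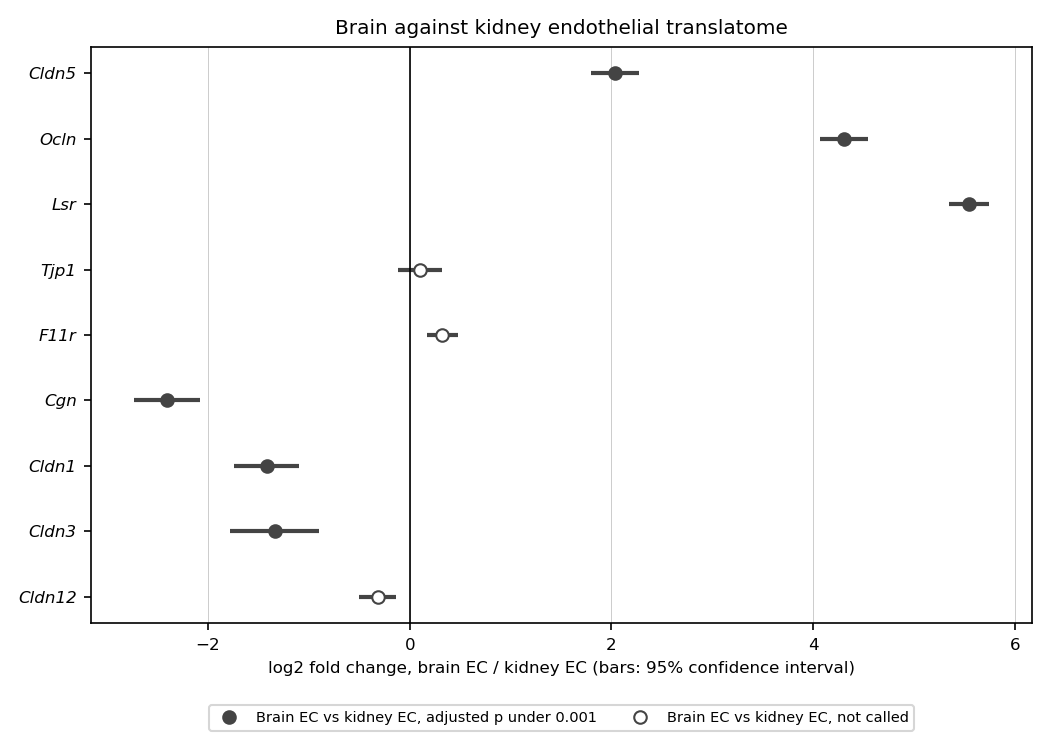
Log2 fold change of each member in brain EC against kidney EC, with 95% confidence intervals; filled points passed an adjusted p under 0.001. Lsr (5.54), Ocln (4.31) and Cldn5 (2.04) lie right of 0, Cldn3, Cldn1 and Cgn left of it, and the interval of Tjp1 includes 0.

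In the wider set, 12 of 46 other tight junction genes were higher in brain EC, 17 lower and 17 did not pass. The largest differences were in claudins that were lower in brain EC: Cldn8 had 0 reads in the 3 brain EC samples and 5.20 ± 0.659 RPKM (SD, n = 3) in kidney EC, so no fold is given. Cldn4 (0.0316 against 7.86 RPKM), Cldn6 (0.0493 against 6.43), Cldn15 (0.0922 against 9.60) and Cldn7 (0.282 against 9.94) were likewise close to 0 in brain EC. Of these claudins only Cldn15 was higher in kidney EC than in the kidney translatome. Cldn8, Cldn4, Cldn6 and Cldn7 had means of 35.6, 36.1, 58.7 and 44.9 RPKM in the kidney translatome, above those in kidney EC. The part of epithelial RNA in their kidney EC values was not tested. Outside the 5 largest, and picked after their values were seen, Jam2 (25.4 against 2.32 RPKM, log2 fold change 3.49 ± 0.10 SE) and the angulin Ildr2 (15.0 against 1.60, 3.27 ± 0.11) had the largest differences in favour of brain EC among the called genes.

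Kidney with its epithelium was compared with forebrain through the whole-organ translatomes. In kidney 8 of the 9 members were higher, where 53.4% of 19241 transcripts passed, 26.2% higher and 27.2% lower, and the members' median log2 fold change was 1.80, against 0.01. Cldn1 (7.99-fold, log2 3.00 ± 0.11 SE, edgeR adjusted p = 2.1e-11), F11r (7.07-fold), Cldn3 (5.62-fold) and Cgn (5.09-fold) differed most, ahead of Ocln (3.49-fold), Lsr (2.00-fold), Cldn12 (1.76-fold) and Tjp1 (1.40-fold). Cldn5 was the exception, with a log2 fold change of -0.25 (95% interval -0.41 to -0.09, edgeR adjusted p = 0.0075).

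Cldn12 lost its call with the sequencing lane as a term (0.74, edgeR adjusted p = 0.0040) and without brain translatome replicate 1 (0.77, edgeR adjusted p = 0.0011). The epithelial markers Epcam, Krt8 and Cdh1 were 59.4-fold, 39.2-fold and 27.1-fold higher in kidney, and the endothelial Cdh5 and Pecam1 2.68-fold and 2.79-fold. Of 47 other tight junction genes, 26 were higher, 7 lower and 14 did not pass, with a median of 1.05. Cldn8, Cldn4, Cldn7 and Cldn6 had 35.6 ± 3.20, 36.1 ± 3.51, 44.9 ± 7.60 and 58.7 ± 5.18 RPKM (SD, n = 3) in kidney and at most 0.101 in the brain translatome, and Igsf5 had 8.05 ± 0.884 against 0.173 ± 0.0640.

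The Emx1-lineage, a neural population with few endothelial transcripts, was set against the brain translatome. Of the members, 1 was higher, 4 lower and 4 did not pass, where 22.1% of 19006 transcripts passed, 9.2% higher and 12.8% lower, and the members' median log2 fold change was -0.03. F11r was 10.9-fold lower (-3.44 ± 0.11 SE, edgeR adjusted p = 7.5e-12), Cldn5 7.64-fold (-2.93 ± 0.09), Ocln 3.90-fold (-1.96 ± 0.13) and Lsr 2.26-fold (-1.17 ± 0.10). Brain EC, compared above with the same brain translatome samples, had 4.25 for F11r, 4.50 for Cldn5, 4.09 for Ocln and 4.09 for Lsr.

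Cldn3 was 1.73-fold higher in the Emx1-lineage (0.79 ± 0.12, edgeR adjusted p = 0.00011), a call that was lost without brain translatome replicate 1 (0.74, edgeR adjusted p = 0.0014). Tjp1 (-0.02, 95% interval -0.14 to 0.10) and Cldn12 (-0.03, interval -0.19 to 0.13) were within narrow bounds of no difference, and Cldn1 (0.33) and Cgn (0.25) did not pass. The endothelial Cdh5 and Pecam1 were lower by log2 fold changes of -4.47 and -4.13, and so was Cdh1 (-2.24). Among 45 other tight junction genes 4 were higher, 6 lower and 35 did not pass: Esam (-3.74 ± 0.10), which endothelium expresses, and Cldn11 (-1.92 ± 0.09) fell most among those with at least 5 RPKM, and Ildr2 (-0.57 ± 0.06), Mpdz (0.43 ± 0.08) and Jam2 (-0.31 ± 0.05) differed less.

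Ribosome-bound and total RNA of the same tissue samples were compared last. In brain, 4 members were higher in the translatome and 1 lower, where 37.1% of 19446 transcripts passed, 18.6% higher and 18.5% lower. Cldn5 (1.89-fold, log2 0.92 ± 0.11 SE), F11r (1.69-fold, 0.76 ± 0.09), Lsr (1.39-fold, 0.47 ± 0.09) and Tjp1 (1.30-fold, 0.38 ± 0.06) were higher, and Cgn was 2.29-fold lower (-1.19 ± 0.16, edgeR adjusted p = 1.7e-05). Of the endothelial markers, only Kdr had a lower mean RPKM in the brain translatome (10.6) than in the transcriptome (13.4). Pecam1, for example, had 20.6 against 11.8, and Cdh5 16.6 against 15.0. The part of such a shift in the members' values was not tested. The calls for Lsr and Tjp1 were lost with the sequencing lane as a term (Lsr 0.56, edgeR adjusted p = 0.0015; Tjp1 0.26, edgeR adjusted p = 0.0080). Lsr was also lost with at least 10 counts in 3 samples (0.45, edgeR adjusted p = 0.0013). Both were lost without brain translatome replicate 1, and Lsr in 5 of the 6 fits that left out 1 library, all but the one without brain transcriptome replicate 2. None of these fits paired the libraries of 1 tissue sample. With a replicate block that does so, Lsr (0.48, edgeR adjusted p = 8.1e-07) and Tjp1 (0.38, edgeR adjusted p = 7.8e-07) passed.

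In kidney, Cldn5 alone passed, 1.29-fold higher in the translatome (0.37 ± 0.05, edgeR adjusted p = 0.00011), where 30.7% of 19336 transcripts passed, 14.9% higher and 15.8% lower. With the replicate block, which pairs libraries of 1 tissue sample, 4 members passed: Cldn5 (0.36), Cldn12 (0.18, edgeR adjusted p = 8.9e-05), Cldn3 (-0.33, edgeR adjusted p = 8.5e-08) and Cgn (-0.43, edgeR adjusted p = 4.0e-12). The number of all transcripts called rose in that fit from 2880 higher and 3049 lower to 4636 and 4860. With the sequencing lane as a term Cldn5 did not pass (0.39, edgeR adjusted p = 0.021). Without kidney transcriptome replicate 2, Cgn also passed (-0.60, edgeR adjusted p = 0.00041).

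Other tight junction genes were called in both directions between the RNA fractions. In brain 6 of 45 were higher in the translatome and 3 lower, led by Pard6a (0.80 ± 0.08 SE), Cldn11 (0.76 ± 0.08), Mpdz (0.72 ± 0.09), Magi1 (-0.67 ± 0.06) and Cldn25 (0.57 ± 0.05). In kidney 5 of 48 were higher and 8 lower, led by Mpdz (1.20 ± 0.09), Cgnl1 (-1.09 ± 0.07), Cldn25 (0.82 ± 0.04), Crb3 (0.71 ± 0.10) and Inadl (-0.62 ± 0.07). Cgn was thus lower in the brain translatome than in total RNA, and its paralogue Cgnl1 in the kidney translatome, organs picked after the values were seen. In kidney the log2 fold change of Cgn was -0.44 (edgeR adjusted p = 0.021), which did not pass with the main setting. The value of Cgnl1 in brain is not given here.

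Finally, the genes whose group means followed each member most closely were listed, by Pearson r of log2(RPKM + 1) over the 7 groups among 11841 rows with a mean of at least 5 RPKM in some group. Cldn5 was most like Grap (0.9985), Fxyd5 (0.9969) and Epas1 (0.9955), Ocln like Tcf7 (0.9934), 5430407P10Rik (0.9889) and Ptges (0.9882), and Lsr like Slc7a8 (0.9895), Pip5k1b (0.9836) and Ptges (0.9807). Ptges was thus on the lists of both Ocln and Lsr. For F11r they were Anxa5, Gusb and Gpr124 (0.9963 to 0.9974), for Tjp1 Txnip, Twf2 and Relb (0.9897 to 0.9916), and for Cgn Foxn2, 0610009O20Rik and Nhs (0.9896 to 0.9966). Cldn1 was closest to Prss8 (0.9991), Kcnj16 (0.9988) and Hoxc9 (0.9987), Cldn3 to Lrrc42, Fgfrl1 and Sfr1 (0.9855 to 0.9916), and Cldn12 to Fam189b, Tsga14 and Bmper (0.9893 to 0.9972). All 7 points come from shared libraries and the rows were searched for the best match, so the values are a description; with a pseudocount of 0.1, 16 of these 27 entries stayed on the lists.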

How the data were processed

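Ribosome-bound or total RNA of 21 samples was sequenced by the authors from unstranded TruSeq libraries, mapped with RUM to GRCm38 (mm10) and summarised on UCSC refGene with rpkmforgenes. The deposited files give for each of 23827 rows a raw read count and an RPKM value, both made by the authors; RPKM was used for levels (mean ± SD of 3 replicates) and counts for tests.

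The quasi-likelihood F-test of edgeR 4.0.16 (glmQLFit and glmQLFTest after TMM scaling, R 4.3.3) was run on rows with at least 1 count, pairwise as in the study, with Benjamini-Hochberg adjustment over all rows tested and a threshold of 0.001; the endothelial difference between organs was an interaction term over 12 samples. All p-values are two-sided. Each SE was derived from the log2 fold change and its F statistic, and the intervals are at 95%. The test was checked on simulated counts. Tables and figures used Python 3.11.15, pandas 2.3.3, numpy 2.4.6 and matplotlib 3.10.9.

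The members and all gene lists were chosen with earlier results of these data known. Named genes are the 9 members, for each comparison up to 5 called genes of the other tight junction list with the largest change and a mean of at least 5 RPKM in a group, and for each member the 3 most alike rows. Marker lists were endothelium, brain barrier and fenestrated endothelium, simple epithelium, ureteric bud, podocyte, choroid plexus epithelium, pericyte, neural, macrophage and microglia, red blood cell and epidermis. Depth was 21760652 to 79231692 counted reads per sample.

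Libraries with the same number came from the same tissue in the translatome and transcriptome of an organ; their deviations from the group means correlated at 0.43 to 0.50 in brain and 0.43 to 0.52 in kidney. For brain EC and kidney EC the correlations were 0.14 to 0.21, so their numbers also met the criterion for pairs; the values reported are from the fit without the block, and the blocked fit changed no call of a member there. In the other comparisons at least 1 pair was under 0.1. Alternatives were relative log expression factors, total counts, at least 10 counts in 3 samples, DESeq2 1.42.0, a replicate block, a single fit of all 21 samples, the sequencing lane as a term, the organ transcriptome as the reference, a pseudocount of 0.1, a minimum of 1 RPKM, and each replicate left out. No sample was left out otherwise.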

Additional observations from a re-analysis of the deposited data

Results flagged for a closer look

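Between the organs the endothelial enrichment over the organ translatome differed for 7 of the 9 tight junction genes, by the interaction term of edgeR's quasi-likelihood test over 12 samples. Of all 19764 transcripts tested, 25.1% passed, 16.5% with a higher and 8.6% with a lower value in brain. The difference, brain minus kidney on the log2 scale, was 6.66 for Lsr (adjusted p = 1.5e-15), 6.23 for Ocln (adjusted p = 4.8e-14) and 3.26 for F11r (adjusted p = 1.6e-13). It was 1.90 for Cldn5 (adjusted p = 1.3e-08), 1.70 for Cldn1 (adjusted p = 7.6e-07), 1.27 for Cldn3 (adjusted p = 0.00016) and 0.70 for Tjp1 (adjusted p = 0.00016). Compared directly, Lsr, Ocln and Cldn5 were higher in brain EC than in kidney EC. F11r (0.32) and Tjp1 (0.10) did not pass in that comparison, and Cldn1 (-1.42) and Cldn3 (-1.34) were lower in brain EC. The reference translatome was higher in kidney than in brain by 2.82 for F11r, 0.48 for Tjp1, 3.00 for Cldn1 and 2.49 for Cldn3. For Ocln and Lsr it was higher by 1.80 and 1.00, and for Cldn5 the value was -0.25. Lsr and Ocln were enriched in brain EC and depleted in kidney EC; for Cldn3 both organs showed depletion, which was weaker in brain. All endothelial markers on the list also had a larger enrichment in brain, and the part of that shift in the members' values was not tested. No group had more than 3 samples, so single samples far from their group were not searched for.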

How the results depend on the processing

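Of 981 member fold changes refitted under other settings or without 1 library, 13 had the opposite sign, and none of these was called with the main setting. Values given in the report for lost or gained calls are not repeated. Counts of all transcripts called changed by over 1.5 times as follows; the causes were not tested except where the setting removes samples. Scaling by total counts gave 1564 higher and 5655 lower in kidney EC (3163 and 2837 with TMM). It also shifted the median log2 fold change of all transcripts by 0.19 between the whole-organ translatomes and took the share of higher calls in the Emx1-lineage from 41.7% to 29.9%. DESeq2 gave 2735 transcripts with a lower log2 fold change over the organ translatome in brain (1700 with edgeR), which took the share of higher ones from 65.7% to 55.5%. For the Emx1-lineage, 1749 higher transcripts became 1164 with at least 10 counts in 3 samples, 1116 with the replicate block, 1110 to 1444 without 1 library (lowest without Emx1 replicate 2, and 1138 without replicate 1) and 4952 with the brain transcriptome as the reference, against which 4641 were lower (2442 against the translatome). Against that reference Tjp1 turned from -0.02 to 0.43 (adjusted p = 5.8e-07) and Cgn from 0.25 to -0.87 (adjusted p = 8.5e-05); neither had been called. In the brain translatome against the transcriptome, 5 members called became 3 with the sequencing lane as a term and 3 to 5 without 1 library (3 without brain translatome replicate 1). In kidney, 1 member called became 4 with the replicate block (4636 higher and 4860 lower transcripts), 0 in a single fit of all samples and 0 with the lane as a term (2024 lower), and 1 to 2 without 1 library (2 without kidney transcriptome replicate 2). In that blocked fit the estimated prior degrees of freedom were infinite. The single fit of 21 samples also called Cldn1 in brain EC (0.59), F11r between the endothelia (0.44) and the Cldn12 interaction (0.62), the last also with the replicate block (0.61); DESeq2 (-0.39) and the transcriptome reference (-0.52) called Cldn12 in brain EC. The block changed no other call of a member. Replicates show the spread between 3 tissue samples of a group, each of 1 or 2 embryos, and each member had at least 47 reads in every sample.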
